A study of Saccharomyces cerevisiae with 4 samples.

Results

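The hexose transporter (HXT) genes HXT1 to HXT10 of the budding yeast Saccharomyces cerevisiae were examined on 4 two-colour arrays. Each array set RNA that had come down with zz-tagged Mex67, the receptor that takes mRNA through the nuclear pore, against the RNA precipitated by zz on its own, a tag taken from protein A that binds immunoglobulin. The 10 genes were taken by their symbol in the platform annotation, out of 5583 genes named on either platform, and all 10 are printed on both platforms. The 4 arrays form 1 group, and the labels name the organism and both precipitates. The labels do not state the strain, growth medium, glucose supply, replicate cultures, dyes or the numerator of the ratio. Where arrays are averaged, the spread is between arrays and may be technical.

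HXT proteins are sugar carriers of the plasma membrane that let hexoses flow down their concentration gradient into the cell, the entry step of glycolysis. Yeast cells switch between carriers of low and high affinity as glucose changes: the sensors Snf3 and Rgt2 lead to removal of the repressor Rgt1 from HXT promoters, while the kinase Snf1 and the repressor Mig1 set the genes that are shut off when glucose is plentiful. Several members are close in sequence, above all the tandem pair HXT6 and HXT7, so their mRNAs may share hybridisation and neighbouring values may not be independent.

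Values are log2 ratios minus the median over the genes of the array, so 0 is the array's median gene and 1 is 2-fold above it. The zzMex67 precipitate is the likely numerator: it comes first in the titles and was channel 1 on 3 of the arrays, replicates 1, 3 and 4. Nothing in the values settles this, and ratios are called higher or lower only. On replicate 2 the labels put zzMex67 in channel 2, though the title of that array also names zzMex67 first. The title and the channel thus part there. The sign of replicate 2 was turned by the channel, and would stay as deposited if the title order gave the numerator. Replicate 1, on a platform of its own, had a value on 75.5% of 7680 spots. Replicates 2, 3 and 4, on a second platform of 12800 spots, had one on 7.84%, 36.0% and 35.1%.

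On replicate 1 all 10 HXT genes were measured. With the whole array centred, most lay well above the array median and the others close to it. HXT6, HXT3, HXT4, HXT2, HXT7, HXT9 and HXT10 lay between 1.45 and 2.95, or 2.73-fold to 7.75-fold above the median. HXT1, HXT8 and HXT5 lay between -0.06 and 0.05. Thus 7 of 10 members were 2-fold or more above the median, where 26.0% of the 4409 measured genes were, and 0 of 10 were 2-fold or more below it, where 21.1% of all genes were. The family median was 2.03, or 4.10-fold, with an SD over members of 1.18, beside a median of 0 and an SD of 1.68 over all genes. No second array of that platform was hybridised here, so the counts describe 1 hybridisation.

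**Figure D1:**
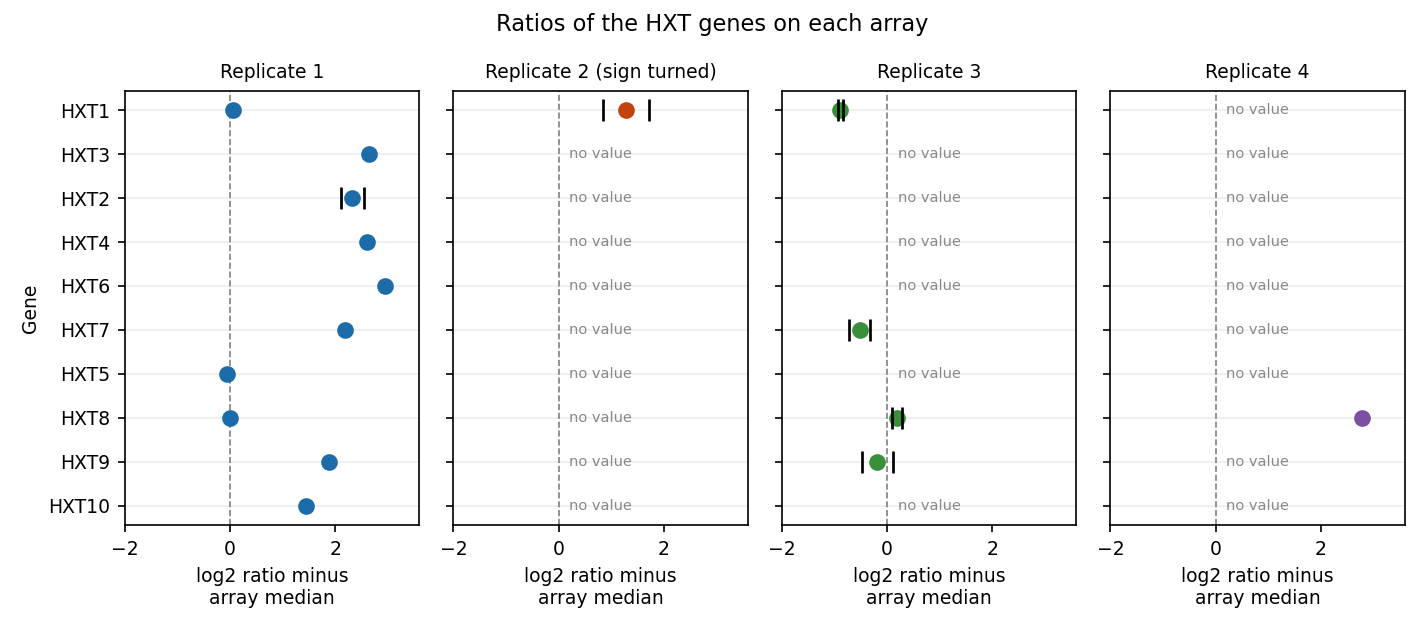
Log2 ratio minus the array median (horizontal axis) of each HXT gene (rows, ordered by role) on replicates 1 to 4, with dots for gene means and black ticks for the 2 spots behind a mean where there were 2. On replicate 1, 7 genes sit at 1.45 or more and 3 at the median, and on replicate 3 the 4 measured genes lie between -0.89 and 0.20.

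The order on replicate 1 can be read only coarsely. Over 695 genes with several spots on that array, the SD between spots of a gene was 0.97, which makes the SD of a difference between 2 single spots 1.37. By this yardstick no gene differed from the next lower one by more than the spot spread except at the step of 1.40 from HXT10 down to HXT1. The step is barely larger than the yardstick. The 7 high genes spanned 1.504 and the 3 low genes 0.11, and 22 of the 45 pairs of members were further apart than the spot spread. That yardstick is 1 SD, so spot noise alone would put some pairs past it. The share of such pairs among all genes was not computed, so the count says nothing particular about the members. HXT2 is a mean of 2 spots, so a yardstick for single spots is too wide for its pairs.

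HXT3 and HXT1 encode the low-affinity carriers that serve cells growing on abundant glucose, and they stood apart on replicate 1. HXT3 (YDR345C) had 2.64 from 1 spot, above 88.8% of the genes of the array. HXT1 (YHR094C) had 0.05 from 1 spot, above 51.4% of them. HXT3 had no value on the second platform.

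HXT1 was measured on 3 arrays and had no common direction. It had 0.05 on replicate 1, 1.29 on replicate 2 with the sign turned, and -0.89 on replicate 3. Its 2 spots were at 1.73 and 0.85 on replicate 2, and at -0.94 and -0.83 on replicate 3. The duplicate spots thus lay on the same side of the median on each array, while the arrays did not. On the second platform the 2 spots of each HXT gene have neighbouring numbers, and may share shifts that go with print position. As deposited, with the sign not turned, replicate 2 gave -1.29, on the side of replicate 3.

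HXT6 and HXT7, the high-affinity carriers used when glucose is scarce, and HXT2 and HXT4, which are also induced at low glucose, were all among the high genes of replicate 1. HXT6 (YDR343C) had 2.95, the highest ratio of the 10, above 91.1% of the genes of the array. HXT4 (YHR092C) had 2.60 and HXT7 (YDR342C) 2.18, each from 1 spot. HXT2 (YMR011W) was the only member with 2 spots there, at 2.11 and 2.54. Their difference of 0.44 was smaller than the median difference of 0.81 between the spots of 693 genes with 2 spots.

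HXT7 alone of these 4 had a value on the second platform. On replicate 3 it had -0.52, from spots at -0.71 and -0.32, and so lay below the median there while it lay 4.53-fold above it on replicate 1. These levels come from separate platforms, and their difference was not tested.

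HXT5 (YHR096C), a carrier of intermediate affinity known from slowly growing and starved cells, had -0.06 on replicate 1, the lowest ratio of the family, above 48.2% of genes. It had no value on the second platform.

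HXT8, HXT9 and HXT10 are members with little part in glucose uptake under usual laboratory growth, and HXT9 is known as a target of the drug-resistance regulators Pdr1 and Pdr3. On replicate 1, HXT9 (YJL219W) had 1.89 and HXT10 (YFL011W) 1.45, above 83.5% and 80.0% of genes. HXT8 (YJL214W) had 0.01 there. On replicate 3, HXT9 had -0.19, with spots at -0.48 and 0.11 on either side of the median.

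HXT8 was the one member measured on replicate 4, and it was high there. It had 0.01 on replicate 1, 0.20 on replicate 3 and 2.79 on replicate 4. Its value on replicate 4 lay above 96.6% of the 2421 genes of that array, but it came from 1 spot, and the duplicate spot carried no value. On replicate 3 its 2 spots were close together, at 0.29 and 0.10.

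The ratios on replicate 1 moved with the position of the spot. In runs of 400 neighbouring spots, the run medians lay between -1.79 and 1.18 around the gene median of that array. HXT7, HXT6 and HXT3 were printed in runs with medians of -1.79, -1.24 and -0.91, and HXT1 in the run with the highest median of 1.18. With every run centred on its own median, HXT6 had 4.19, HXT7 3.97 and HXT3 3.55, each over 1.5 times higher on the linear scale than before. HXT1 came to -1.13, more than 2-fold below the median. HXT4 and HXT5 share a run, with spots 2266 and 2255, and had 2.48 and -0.18 after this step.

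The same 7 genes stayed above HXT1, HXT8 and HXT5 with runs of 200, 400 or 800 spots, the first and last of these chosen after seeing the data. HXT6, HXT7 and HXT3 took the top 3 places in each of these orders, while their order among themselves changed. HXT1 was at -0.33 with runs of 200 spots and -0.33 with runs of 800. HXT10, the lowest of the 7, was at 0.93, 1.04 and 1.17 with runs of 200, 400 and 800 spots, the first under 2-fold. HXT8, the next below it, was at 0.02, 0.02 and 0.01. The step between them was then smaller than the spot spread of 1.37, which was taken before runs were centred. The family median was 1.898 with runs of 400 spots.

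**Figure D2:**
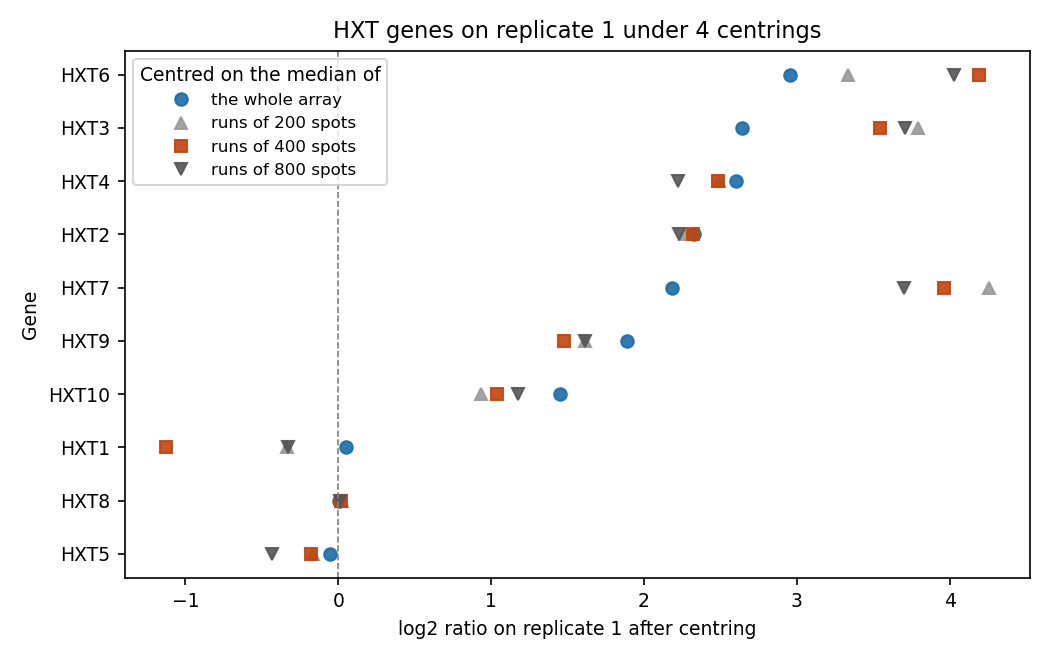
Log2 ratio of the HXT genes on replicate 1 (horizontal axis) after centring on the median of the whole array (circles) or of runs of 200, 400 or 800 neighbouring spots (upward triangles, squares, downward triangles). HXT6, HXT3 and HXT7 move up with runs centred, HXT1 moves below 0, and the 7 high genes stay above the 3 low ones.

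On replicate 1, members that neighbour each other in the genome had similar ratios in 1 cluster and not in the other. HXT6 and HXT7 are close in sequence and may share hybridisation, so their likeness may not be independent. In the RefSeq gene order of assembly R64, HXT7 and HXT6 are adjacent and HXT3 follows after 1 other gene, and on replicate 1 these 3 had 2.18, 2.95 and 2.64. HXT4, HXT1 and HXT5 lie together with 1 gene between HXT4 and HXT1, and had 2.60, 0.05 and -0.06. HXT4 differed from HXT1 by 2.55, more than the spot spread of 1.37, and HXT1 from HXT5 by 0.11, less than it. HXT9 and HXT8, with 3 genes between them, differed by 1.88. These values are centred on the whole array, and the ratios moved with spot position. With runs of 400 spots centred, HXT7, HXT6 and HXT3 had 3.97, 4.19 and 3.55. By the same step HXT4, HXT1 and HXT5 had 2.48, -1.13 and -0.18, and HXT9 and HXT8 had 1.47 and 0.02. Whether likeness goes with genome position was not tested.

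On the second platform 4 of 10 members (40.0%) had a value on any array, where 70.0% of the 5539 genes printed on both platforms had one. HXT2, HXT3, HXT4, HXT5, HXT6 and HXT10 had none. By array, 10%, 40% and 10% of members had a value on replicates 2, 3 and 4. Of all the genes on both platforms, 9.46%, 41.2% and 43.7% had one, so the family fell short on replicate 4 only. Of the 20 HXT spots there, 2 carried a value on replicate 2, 8 on replicate 3 and 1 on replicate 4. Of the 7 members that were high on replicate 1, HXT7 and HXT9 were measured again on the second platform. Over all genes, 72.5% of the 1129 that were 2-fold or more above the median on replicate 1 had a value there, and 68.6% of the other 3247.

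Which HXT spots carried a value on replicate 3 went with where they were printed. The 8 HXT spots with a value lay in runs of 400 spots of which 57.0% to 88.2% carried one. The 12 HXT spots without a value lay in runs of which 6.50% to 35.0% did. The 2 spots of each HXT gene lie in the same run, so they are not separate observations. For any gene, a spot is likelier to carry a value in a run where more spots do. Such a split is therefore expected. No such figure is given for the spots of other genes, so this is not shown to be particular to HXT spots. On replicate 4 the single HXT8 value came from a run with 21.0%, within the range of 4.25% to 35.0% around the 19 HXT spots without one. On replicate 2 both HXT1 spots lay in a run with 13.5%, and those without a value in runs from 0.25% to 37.2%. Because the files hold no intensities, how bright any HXT spot was is unknown here.

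**Figure D3:**
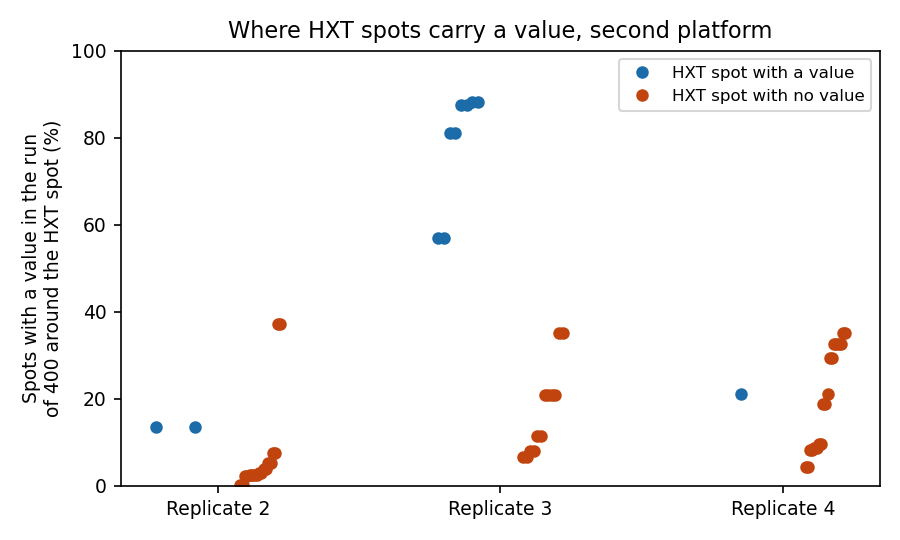
Percentage of spots with a value (vertical axis) in the run of 400 spots that holds each HXT spot, for replicates 2, 3 and 4, with HXT spots that carry a value on the left of each pair and those that carry none on the right. On replicate 3 the spots with a value lie in runs at 57.0% or more and those without at 35.0% or less.

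HXT1 and HXT8 were the members with values on 2 arrays of the second platform, and neither passed limma's test of the mean against 0. HXT1, which lacks replicate 4, had a mean of 0.20 ± 1.54 (SD, n = 2), with a 95% interval of -2.29 to 2.69 and an adjusted p of 0.998 from limma. HXT8, which lacks replicate 2, had a mean of 1.49 ± 1.83 (SD, n = 2), with an interval of -0.9997 to 3.98 and an adjusted p of 0.998 from limma. Both intervals use the same standard error of 1.27, although the SDs differ, because limma pooled the variance over genes here. The HXT1 interval runs past 2-fold in both directions, and the HXT8 interval from just under 2-fold lower to well past 2-fold higher. Over the whole table, 0 of 1212 genes (0.00%) passed limma's adjusted threshold. At an unadjusted p under 0.05 there were 57 genes, 0 of them HXT members. The tested genes had a median mean ratio of 0.28.

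Adding replicate 1 by gene joins the tables of different platforms. With all 4 arrays joined, HXT8 had a mean of 1.00 ± 1.55 over replicates 1, 3 and 4 (SD, n = 3; limma, adjusted p = 0.895). In the same fit HXT1 had 0.15 ± 1.09 over replicates 1, 2 and 3 (SD, n = 3; limma, adjusted p = 0.986). With only replicates 1, 3 and 4 joined, HXT8 had the same mean and an adjusted p of 0.841 from limma. For each of the 2 genes the SD between arrays was larger than the mean.

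Per array, the measured members on replicate 3 were all within 2-fold of the median. HXT8 had 0.20, HXT9 -0.19, HXT7 -0.52 and HXT1 -0.89. Their median was -0.35 with an SD over members of 0.46. None of the 4 was 2-fold or more higher, where 28.9% of 2280 genes were, or lower, where 21.9% were. On replicates 2 and 4 the family is represented by 1 gene each, HXT1 and HXT8. Each was past 2-fold higher, where 27.7% and 22.5% of all genes were, while 29.2% and 17.4% of all genes were 2-fold or more lower.

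Beside the HXT genes, 15 other sugar transporter genes, 20 genes of glucose sensing and HXT regulation, and the 3 hexose kinase genes were followed. On replicate 1 the kinases, which phosphorylate the sugar once it is inside and are named with their values known, were all 2-fold or more above the median, with 1.13 for HXK1, 3.28 for HXK2 and 3.37 for GLK1. With runs of 400 spots centred HXK1 was at 0.74, under 2-fold, and HXK2 and GLK1 at 3.14 and 5.16. The one other kinase value, GLK1 on replicate 3, was -0.66. Of the other transporters 11 were measured, with a median of 0.76 (SD over members 1.99), 4 at 2-fold or more higher and 3 lower. Of the sensing and regulation genes 13 were measured, with a median of -0.26 (SD 1.86), 4 higher and 4 lower by 2-fold. Over all genes of that array, the shares were 26.0% higher and 21.1% lower. With runs of 400 spots centred, the medians on replicate 1 were 1.898 for HXT1 to HXT10, 0.49 for the other transporters, 0.07 for the regulators and 3.14 for the kinases. No list was tested against another.

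Among the other transporters, chosen after their values were seen, HXT11 and HXT12 are close relatives of HXT9 and were also high on replicate 1. HXT11 had 3.35 and HXT12, annotated as a pseudogene, 3.23, against 1.89 for HXT9. As close relatives, HXT9, HXT11 and HXT12 may share hybridisation. The further HXT genes measured on replicate 1, HXT13, HXT14 and HXT16, had -0.24, 1.11 and 0.76. HXT12 had 2.38 on replicate 3, or 1.38 with runs of 400 spots centred, where HXT9 had -0.19. HXT11 had 0.28 on replicate 4, or -1.36 with runs centred.

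On the second platform the other transporters had medians of -0.44 on replicate 2 (3 genes, sign turned), -0.35 on replicate 3 (6 genes) and 0.28 on replicate 4 (7 genes). With runs of 400 spots centred these were -0.86, -0.03 and 0.46. The sensing and regulation genes had no value on replicate 2, and medians of 0.94 on replicate 3 (9 genes) and 0.17 on replicate 4 (10 genes), or 0.31 and 0.04 with runs centred. HXT13, a further family member, had -0.24, 1.57 (sign turned) and 0.87 on replicates 1, 2 and 4, or -0.66, 0.53 and 0.51 with runs centred. MPH2, a maltose carrier gene, had -1.78, -2.001 (sign turned) and -0.39 on replicates 1, 2 and 3. Only HXT13 and MPH2, 2 of the 15 other transporters, had values on 3 arrays, and of these MPH2 had 3 values of 1 sign. Its sign on replicate 2 rests on the turn, and with runs centred its values were 0.01, -1.19 and -0.07.

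Of the regulators on 3 arrays, GRR1, whose product helps to degrade the corepressors Mth1 and Std1, had 0.06, 4.37 and 0.502 on replicates 1, 3 and 4. YCK1, a membrane casein kinase gene of the sensor pathway, had -0.26, -3.35 and 0.33 on these arrays. TUP1 and CYC8 encode a general corepressor complex, and had -2.05, 2.19 and -1.30, and -0.98, 0.21 and -0.75. GRR1 was above the median on each of its arrays, and the other 3 had mixed signs. With runs of 400 spots centred, GRR1 had 0.07, 2.14 and -0.05 and YCK1 -0.41, -3.37 and 0.13. By the same step TUP1 had -0.26, 1.998 and -0.61, and CYC8 0.81, 0.64 and -0.89, so that CYC8 changed sign on replicate 1 and GRR1 on replicate 4. The sensor genes SNF3 and RGT2, named after their values were seen, were measured on fewer arrays, SNF3 at -3.25 on replicate 3 and RGT2 at -1.27 and 1.22 on replicates 1 and 4.

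**Figure D4:**
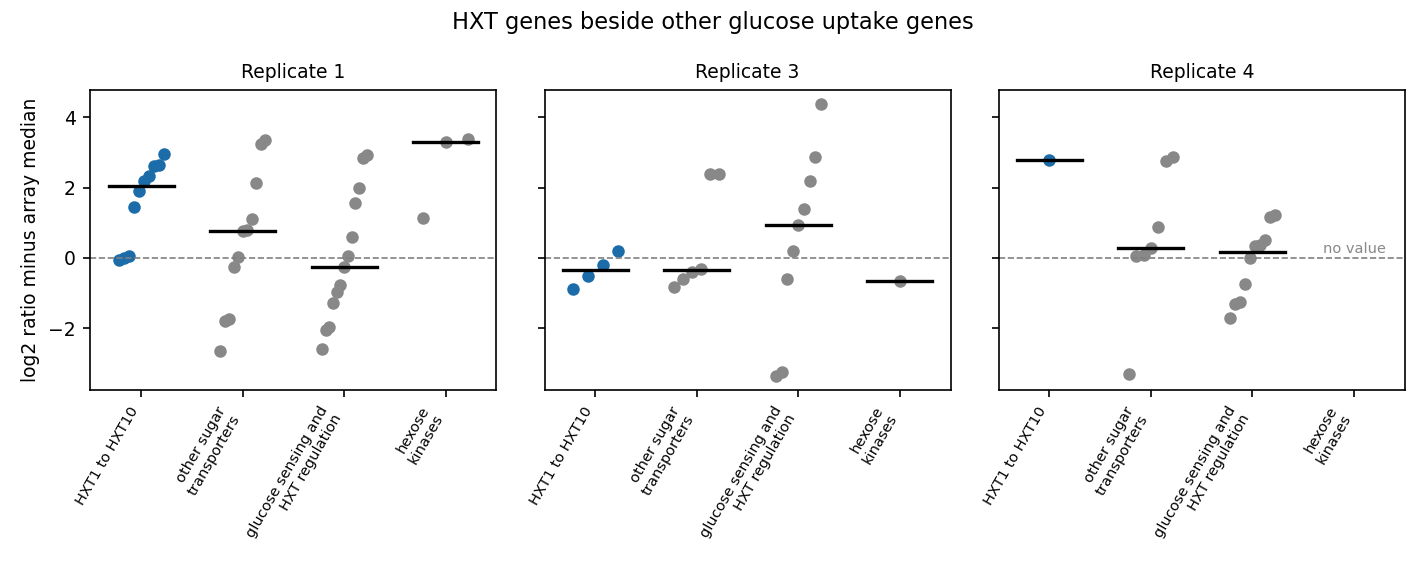
Log2 ratio minus the array median (vertical axis) of HXT1 to HXT10 (left in each panel) and of the other sugar transporters, the genes of glucose sensing and HXT regulation, and the hexose kinases on replicates 1, 3 and 4, with 1 dot per gene and a bar at the list's median. On replicate 1 the HXT bar is at 2.03 and on replicate 3 at -0.35, and on replicate 4 it is the single value of HXT8.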

How the data were processed

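The deposited values are log10 ratios of both channels. Their base was found by taking antilogs: base 10 gave fractions with denominators up to 50 (tolerance 2e-08) for 0.259% to 15.5% of an array's spots, base 2 for 0.152% at most. How the authors corrected background or normalized is not given in the sources used here. Ratios were converted to log2, spots of a gene averaged, and each array centred on its gene median, without loess or quantile normalization. Symbols were those of the platform annotation, checked through gene identifiers against RefSeq (R64), with 0 updates. One repeated spot identifier without values was dropped. Limma 3.58.1 (lmFit, eBayes, Benjamini-Hochberg, R 4.3.3) was fitted to all genes with values on at least 2 of the 3 arrays of the second table. The fit was tested on simulated data with noise smaller than the SD between arrays of HXT1 and HXT8. It therefore does not show how large a shift could be found in these data. Python 3.11.15 with pandas 2.3.3 made the other values.

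All HXT genes were named, and of the other lists those with values on at least 3 arrays, unless stated. Members and lists were chosen with earlier results of these data known. Alternatives were replicate 2 left unturned, values left uncentred or scaled, quantile normalization, a dye term, joined tables, runs of spots centred, other spot averages, and leaving out arrays or members.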

Additional observations from a re-analysis of the deposited data

How the results depend on the processing

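With no centring, the ratio of HXT8 on replicate 4, the family's single value there, was 4.82 in place of 2.79, because that array's own median is added back. The family's other medians kept their sign under each centring, scaling, spot average and left-out member tried. They moved by less than 1.34, the SD between the 4 arrays' medians, a wide margin. Scaling cannot change a sign, and the median of 2 spots is their mean, so these settings could not have turned a median. On replicates 2 and 4 the family is 1 gene, so no member could be left out there. Uncentred, the family medians were 3.31, 1.87 and -1.18 on replicates 1, 2 and 3. With runs of 200, 400 and 800 spots centred, replicate 2 had 1.96, 1.61 and 1.904, replicate 3 had -0.17, -0.02 and -0.26, and replicate 4 had 2.11, 3.31 and 3.13. HXT1 changed sign on replicate 1 with runs of 400, 200 and 800 spots centred, to -1.13, -0.33 and -0.33, the last 2 chosen after seeing the data. On replicate 3, HXT9 turned to 0.22 with runs of 400 and 0.46 with runs of 800, and HXT8 to -0.39 with runs of 800. With replicate 2 as deposited, HXT1 had -1.29 on that array and a mean of -1.09 (limma, adjusted p = 0.995). The cause of these changes of sign was not tested, apart from the sign of replicate 2, which turns the value by construction. Limma called 0 members in every setting that tested one, with adjusted p from 0.841 to 0.998. It also called 0 of all genes in each setting, so this count says nothing particular about the members. No HXT gene could be tested with genes on all 3 arrays, with the dye term or without replicate 3. Leaving out replicate 2 or 4 left HXT8 or HXT1 with the same 2 arrays and 0 calls. No paired analysis was possible because the arrays form 1 group. The number of arrays and the many spots without a value limit precision.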
